A study of Drosophila melanogaster with 2 samples.

Results

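The chemosensory receptor genes of Drosophila melanogaster were examined as a group in a map of Scr-eGFP on the embryonic genome. They were taken as every protein-coding gene whose symbol is Or, Gr or Ir followed by a number and a letter, which gave 179 of the 13968 protein-coding genes of the chromosome arms. The odorant receptors (Or) contributed 59 genes, the gustatory receptors (Gr) 60 and the ionotropic receptors (Ir) 60. Of the 179, 46 lay on 2R, 42 on 3R, 35 on 3L, 31 on 2L and 25 on X, and none lay on chromosome 4 or Y. A further 7 pseudogenes with such names were left out, and 0 of them had a summit within 2 kb.

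The map came from chromatin immunoprecipitation and sequencing of whole embryos aged 0 to 24 h, collected from transgenic flies that carry a fusion of Scr, the Hox protein Sex combs reduced, with eGFP. There was 1 group of 2 biological replicates, per the labels, which give both the same donor, and no other genotype or treatment. The immunoprecipitation used an antibody to GFP (one label field gives Scr instead), chromatin was sonicated to 200 to 800 bp, and sex was not recorded. Whole embryos mix all cell types, so binding in the few sensory neurons that use a receptor cannot be told apart from binding in all other cells.

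Odorant receptors are ligand-gated ion channels that work in olfactory neurons together with the coreceptor Orco. Gustatory receptors detect sugars, bitter compounds and carbon dioxide, and ionotropic receptors, relatives of the ionotropic glutamate receptors, detect acids, amines, salt, temperature and humidity together with a few shared coreceptors. Each receptor is typically used by a small class of sensory neurons, and many of the genes stand in tandem clusters left by gene duplication.

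Receptor genes rarely had a peak at their own start. In the main list, which the authors made from both replicates and which held 5720 peaks on the arms, 7 of 179 receptor genes (3.91%, Wilson 95% interval 1.91 to 7.85, counting error only) had a summit within 500 bp of one of their own annotated transcription start sites (TSSs), where 36.2% of all protein-coding genes did. They were the gustatory receptors Gr5a, Gr61a and Gr97a and the ionotropic receptors Ir31a, Ir60b, Ir60e and Ir76a. None of the 59 odorant receptors had one, and a count of 0 (taken as up to 3 counts) allows a share of up to 5.08%. For 130 of the 179 receptors the annotated start is a start codon, and genes annotated in that way seldom had an own-TSS summit whether they were receptors or not, as given below. With the gene and 2 kb on either side as the window, a summit was found for 28 of 179 (15.6%, interval 11.0 to 21.7), where 50.2% of all protein-coding genes had one. By family these were 6 odorant, 10 gustatory and 12 ionotropic receptors.

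The peaks in the receptor windows lay mostly at the starts of other genes. The 28 windows held 39 distinct summits, and for 35 of these (89.7%, interval 76.4 to 95.9) the nearest protein-coding TSS belonged to a gene that is no receptor. Summits lay a median of 74 bp from the nearest TSS, and the median distance to the TSS of the receptor whose window it fell in was 1548 bp. These figures are not set against the windows of all genes, so they are not shown to be particular to receptors. Counted as pairs of receptor and summit, of which there were 40 because Gr59e and Gr59f share 1, 19 lay upstream of the receptor, 17 downstream and 4 inside it. The exceptions were both entries at Gr61a, the entry 538 bp upstream of Or82a and the entry 1752 bp upstream of Ir56b. They hold for protein-coding starts only. With the starts of all gene types counted, the share of 89.7% became 94.9%.

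**Figure D1:**
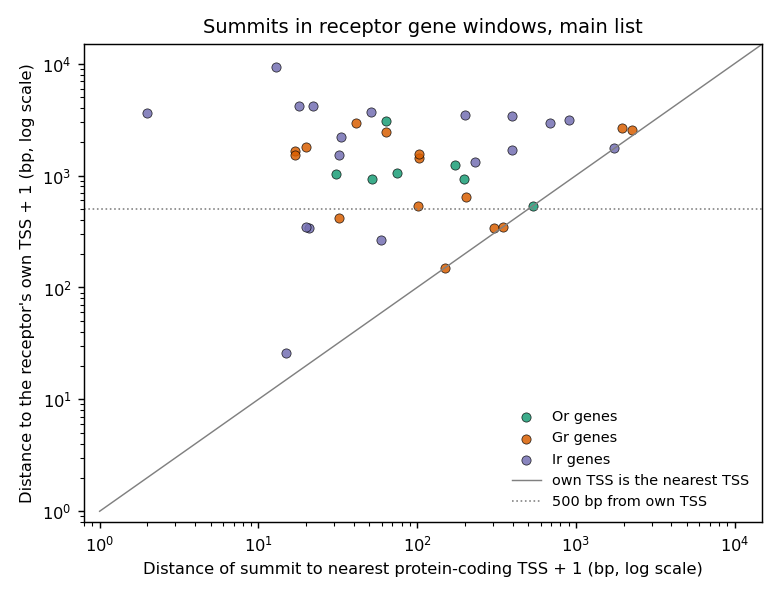
Distance of each main-list summit in a receptor window to the nearest TSS of any protein-coding gene (x axis, bp + 1, log scale) and to the receptor's own TSS (y axis, bp + 1, log scale), coloured by family, for 40 pairs of receptor and summit. Points on the diagonal have the receptor's own TSS as the nearest one, and most points lie above it. The distinct summits have a median of 74 bp to the nearest TSS and the pairs one of 1548 bp to the own TSS.

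The sequences at 8 of these summits are given as examples, chosen mainly for the words they hold and not as typical ones. They are from release 6 of the genome (dm6), 50 bp to each side of the summit, 5′ to 3′ on the strand of the gene whose start is nearest. Capitals mark TATCGATA, the site of the DNA replication-related element factor DREF, its core TATCGAT, which lies within it, or GGTCACAC, within the site of the factor M1BP, each searched on both strands. Of the 8, 6 hold such a word, against 14 of all 39 window summits.
summit in the window of Or9a, at Neb-cGP, chrX:10460656-10460756, plus strand: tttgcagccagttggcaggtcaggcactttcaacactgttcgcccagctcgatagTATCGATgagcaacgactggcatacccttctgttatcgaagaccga
summit in the window of Ir68b, at yps, chr3L:12125132-12125232, minus strand: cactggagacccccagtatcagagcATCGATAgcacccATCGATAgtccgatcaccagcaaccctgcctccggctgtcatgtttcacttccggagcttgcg
summit in the window of Ir76a, at TORIP, chr3L:19805080-19805180, minus strand: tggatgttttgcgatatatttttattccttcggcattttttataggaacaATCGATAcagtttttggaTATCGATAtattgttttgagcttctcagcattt
summit in the window of Gr94a, at p53, chr3R:23054095-23054195, minus strand: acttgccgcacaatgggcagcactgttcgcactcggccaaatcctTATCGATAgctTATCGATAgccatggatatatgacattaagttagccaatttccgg
summit in the window of Gr5a, at Tre1, chrX:5680028-5680128, minus strand: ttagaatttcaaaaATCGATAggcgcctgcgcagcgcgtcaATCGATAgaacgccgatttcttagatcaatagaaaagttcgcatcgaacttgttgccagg
summit in the window of Or88a, at CG12402, chr3R:14108469-14108569, minus strand: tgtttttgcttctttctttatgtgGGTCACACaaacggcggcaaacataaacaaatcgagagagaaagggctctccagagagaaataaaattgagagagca
summit in the window of Ir76b, at CG14187, chr3L:20113192-20113292, minus strand: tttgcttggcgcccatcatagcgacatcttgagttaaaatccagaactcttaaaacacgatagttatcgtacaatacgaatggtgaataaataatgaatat
summit in the window of Or82a, at Or82a, chr3R:4256384-4256484, plus strand: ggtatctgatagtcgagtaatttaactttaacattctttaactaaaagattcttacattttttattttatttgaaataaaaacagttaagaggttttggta

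The starts of 4 receptors are also given, from 80 bp before the annotated 5′ end to 20 bp from it on, on the receptor's strand. None of these 4 receptors has a summit within 500 bp of its own start. Gr68a, which encodes a gustatory receptor of courtship, was chosen because it holds one of the marked words.
own start of Or9a, chrX:10459657-10459756, minus strand: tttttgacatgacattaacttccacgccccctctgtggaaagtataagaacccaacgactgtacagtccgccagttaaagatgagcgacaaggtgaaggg
own start of Ir8a, chrX:9236566-9236665, minus strand: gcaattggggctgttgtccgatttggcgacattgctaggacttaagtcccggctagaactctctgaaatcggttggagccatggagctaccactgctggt
own start of Ir93a, chr3R:20859926-20860025, minus strand: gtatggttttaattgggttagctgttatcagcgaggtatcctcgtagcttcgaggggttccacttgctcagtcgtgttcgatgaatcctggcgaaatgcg
own start of Gr68a, chr3L:11751225-11751324, plus strand: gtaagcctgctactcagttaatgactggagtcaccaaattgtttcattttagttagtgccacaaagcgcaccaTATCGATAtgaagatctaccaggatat

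The DREF word was scarce before the annotated starts of receptors. Over the 300 bp from 250 bp before to 50 bp after the annotated 5′ end, TATCGATA occurred in 1 of 179 receptor promoters (0.559%), that of Gr68a, against 9.36% of all protein-coding promoters, 22.6% of those with an own-TSS summit and 1.81% of those without. The core TATCGAT, a word chosen after seeing the data, occurred in 5.03% of receptor promoters, 18.2% of all and 5.52% of those without a summit. GGTCACAC occurred in 0 of 179, against 7.69% of all and 4.35% of those without a summit. For the 130 receptors whose annotated start is the start codon this window need not be the promoter. TATCGATA occurred in 0.769% of these 130 and in 1.34% of the 372 other genes annotated in that way, and in 0 of the 49 receptors with a 5′ UTR (up to 6.12%) against 9.70% of other genes with one. At the 39 window summits themselves, within 50 bp, TATCGATA occurred at 6 (15.4%) and TATCGAT at 12 (30.8%), close to the 12.8% and 23.1% of all main-list summits, and GGTCACAC at 2. A match is a description of letters, not evidence of a bound site.

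The same window held another word at different rates by family. TATAAA, a word of the TATA box, occurred in 46 of 59 odorant receptor promoters (78.0%), 18 of 60 gustatory (30.0%) and 33 of 60 ionotropic ones (55.0%), against 45.8% of all genes. TCAGT, part of the initiator, occurred in 50.8% of receptor promoters and 51.5% of all. GAGAG, the word of GAGA factor, occurred in 20.1% against 29.7%. These words were counted on either strand and anywhere in the window, so a match need not be a TATA box or an initiator. For receptors whose annotated start is the start codon, the window again need not be the promoter. The base composition was similar, with a median GC content of 39.3% in receptor promoters and 38.0% in all.

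Each of the 7 receptors with an own-TSS summit stood beside another gene's start. The strongest of the 7 was at Ir31a (FBgn0051718), an acid receptor of the antenna, with a peak at chr2L:10405033-10405445. Its signal was 616 in the main list, 352 in replicate 1's list and 261 in replicate 2's. Signal is the authors' value per peak, with a median of 134 over the main list, and is compared here only within a list. The summit lay 342 bp upstream of Ir31a and 20 bp from the shared start of LSm-4, an Sm-like protein of the splicing machinery, and CG17768.

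Ir76a (FBgn0260874), an amine receptor, came next with a peak at chr3L:19801156-19801472 and a signal of 374 (188 in replicate 1, 173 in replicate 2). The summit lay in an intron of Ir76a, 25 bp from an internal TSS of that gene and 14 bp from the TSS of CG14102, and more than 500 bp from the gene's 5′ end. At Ir60e the signal was 202 (86.1 and 118), 264 bp upstream of Ir60e and 58 bp from the start of CG13585. At Gr97a it was 123 (62.2 and 59.6), 414 bp upstream of Gr97a and 31 bp from the start of CG5521. These 4 had a summit at an own TSS in both replicates' lists.

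The other 3 rested on fewer lists. Ir60b, a pharyngeal receptor that limits sugar feeding, had a signal of 102, 19 bp from the start of Letm1, a mitochondrial membrane protein gene. No peak of either replicate's thresholded list overlapped it, and the ranked lists gave 41.6 in replicate 1 and 60.3 in replicate 2. Gr61a, a sugar receptor, had 69.5, 149 bp inside its own 5′ UTR, with 51.3 in replicate 1's list and 28.1 in replicate 2's ranked list only. It was the 1 receptor of the 7 whose summit was nearest to its own TSS, although the start of JMJD5, 91 bp from that of Gr61a, also lay within 500 bp. The authors' conservative list, also made from both replicates, had no summit within 2 kb of Gr61a. Gr5a, the trehalose receptor, was counted in the main list through an entry of signal 3.58 at 337 bp, overlapping a stronger entry of 119 that lay 539 bp from Gr5a and 101 bp from the start of Tre1, a receptor of migrating germ cells. When overlapping entries were merged Gr5a was no longer counted. In replicate 2's own list it had a summit of signal 71.2 at 484 bp, nearest the start of Tre1, and replicate 1's list had none within 500 bp.

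**Figure D2:**
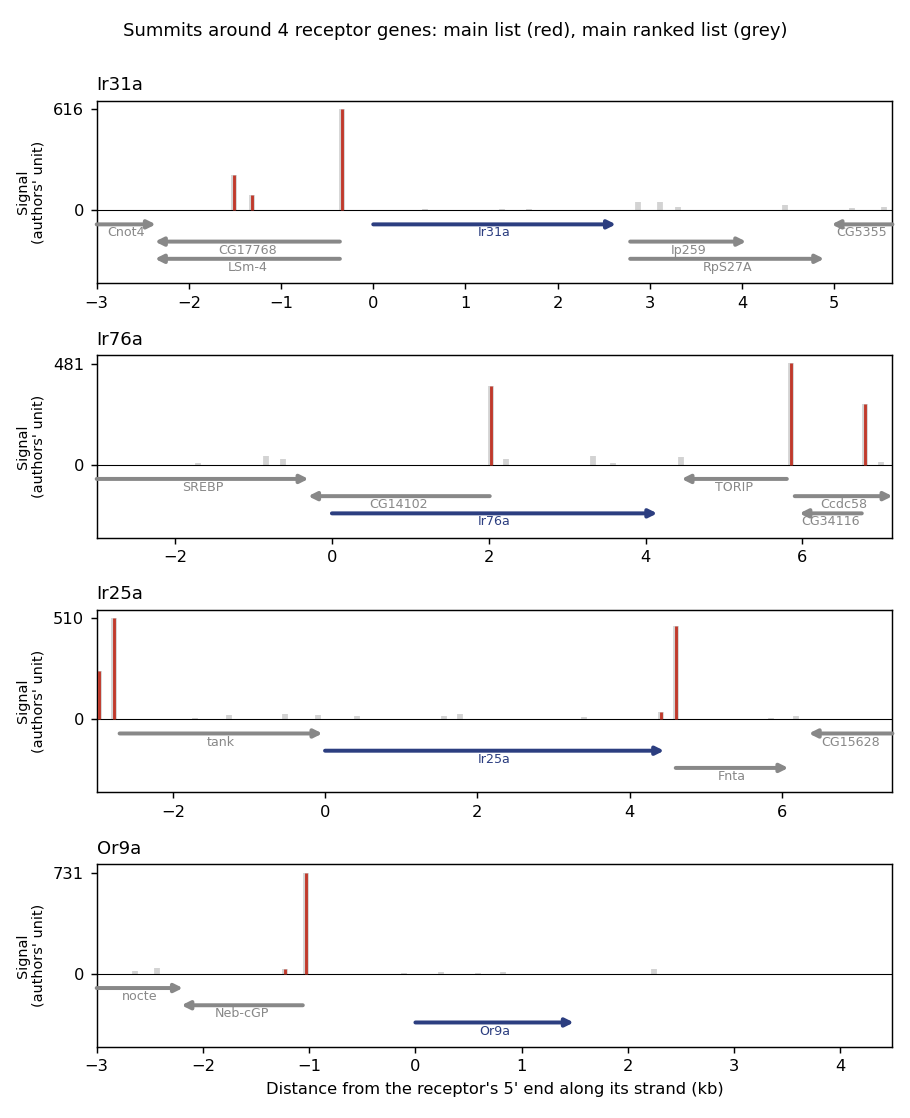
Main-list summits (red, height is the authors' signal) and main ranked-list entries (grey) around Ir31a, Ir76a, Ir25a and Or9a, with protein-coding genes as arrows in their direction of transcription and the receptor in blue. The x axis is the distance from the receptor's 5′ end along its strand (kb), and tall summits stand at the starts of LSm-4 with CG17768 (616), of CG14102 (374) and TORIP (481), of Fnta (469) and of Neb-cGP (731). The tallest in the Ir25a panel (510) lies beside the start of tank, outside the 2 kb window of Ir25a.

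The neighbouring starts were then counted over all receptors. Of the 179, 144 had no other protein-coding TSS within 1 kb of their own, a setting chosen after seeing the data, and 0 of these 144 had an own-TSS summit (which allows a share of up to 2.08%). Of all protein-coding genes with such an isolated TSS, 22.0% had one. However, 112 of the 144 have no annotated 5′ UTR, and of the 265 other genes with an isolated TSS and no 5′ UTR only 3 (1.13%) had one, a share within the 2.68% that 0 of 112 allows. Among genes with another TSS within 1 kb, 7 of 35 receptors had one, where 55.3% of all such genes did. For 23 receptors the neighbour within 1 kb was no receptor. The nearest such neighbour had a summit at its own TSS in 10 of these 23 cases, and 7 of the 10 receptors were counted too. In the 13 other cases, 0 receptors were. This split is largely built in, since every own-TSS summit of the 7 receptors also lay within 500 bp of the neighbour's start, so that 1 summit calls both genes. The 3 receptors beside a called neighbour that were not counted were Gr94a beside p53 (459 bp apart), Or67b beside Cyp40 (517 bp) and Or71a beside Plp (978 bp).

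**Figure D3:**
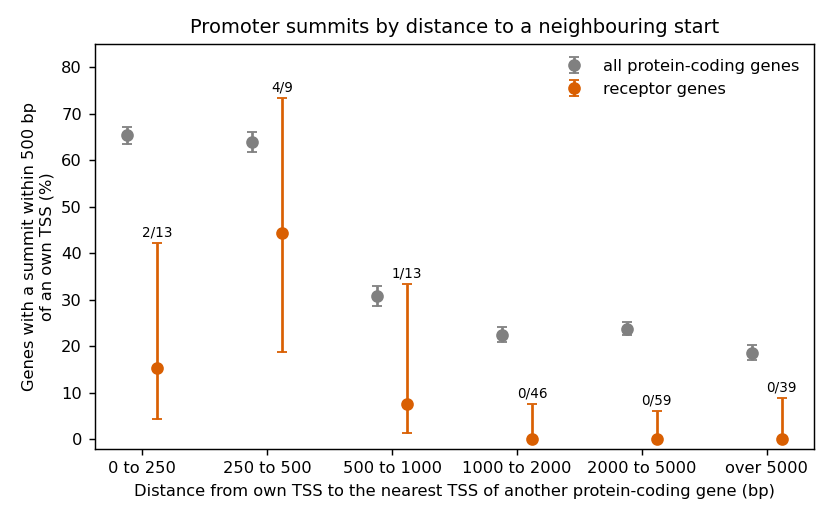
Percentage of genes with a main-list summit within 500 bp of an own TSS (y axis) by the distance from that TSS to the nearest TSS of another protein-coding gene (x axis, bp), for receptor genes (orange, with counts) and all protein-coding genes (grey). Bars are Wilson 95% intervals. No receptor beyond 1 kb from another start was counted, with 0 of 46, 0 of 59 and 0 of 39 in the 3 outer classes.

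The annotation of the receptors' starts bears on these counts. For 130 of the 179 receptors (72.6%) the gene model has no 5′ UTR, so that its start is the start codon, against 3.59% of all protein-coding genes. Of these 130, 1 had an own-TSS summit (Ir60e), and of the 49 receptors with a 5′ UTR 6 had one. Split in this way, a choice made after seeing the data, the intervals of receptors without a 5′ UTR overlapped those of other genes of that kind. An own-TSS summit was found for 0.769% of them (interval 0.136 to 4.23), against 3.76% of 372 other genes (2.25 to 6.22), and a window summit for 13.8% (8.94 to 20.8) against 16.4% (13.0 to 20.5). A ranked entry within 500 bp, from the longer list of all entries described below, was found for 23.1% (16.7 to 31.0) against 31.7% (27.2 to 36.6).

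The 49 receptors with an annotated 5′ UTR had fewer summits than other genes with one. An own-TSS summit was found for 12.2% of them (interval 5.73 to 24.2), against 37.6% of 13417 other genes (36.8 to 38.4), a window summit for 20.4% (11.5 to 33.6) against 51.6%, and a ranked entry for 34.7% (22.9 to 48.7) against 70.9%. With isolated starts as well, 0 of 32 receptors had an own-TSS summit, which allows a share of up to 9.38%, against 23.1% of other genes of that kind. The differences over all 179 receptors therefore mix few genes with a mapped start and many without one. A window of 1 kb around the TSS added Or67b, Or82a and Or88a, to make 10 receptors (5.59%), where 39.2% of all genes had a summit. What a mapped 5′ end would add to the counts of the 130 was not tested.

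Receptors were also shorter and further from any summit than other genes. Their median length was 1691 bp against 2164.5 bp for all protein-coding genes, and their median distance to the nearest other TSS was 2154 bp against 1379.5 bp. The median distance from an own TSS to the nearest main-list summit was 16733 bp against 3314 bp, and it exceeded 10 kb for 113 receptors (63.1%) against 32.7% of all genes. By family the medians were 24932 bp for the odorant, 14518.5 bp for the gustatory and 15007.5 bp for the ionotropic receptors. Uniqueness of sequence was high, since the median share of 36-base words near the 5′ end that occur once in the genome was 100% for receptors as for all genes. Only the near-identical pair Or19a and Or19b fell under 50%, and neither had a summit within 2 kb.

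All 4 ionotropic coreceptors had a summit within 2 kb (interval 51.0% to 100%), where 50.2% of all genes did. None had one at its own start (interval 0% to 49.0%), where 36.2% did. Ir93a (FBgn0259215), which serves temperature and humidity sensing, had the strongest of all receptor windows. The peak, at chr3R:20850274-20850794, had a signal of 1046 (587 in replicate 1, 477 in replicate 2) and ranked 240 among the 5720, with its summit 12 bp from the start of RpS30, a ribosomal protein gene, downstream of Ir93a and 9417 bp from its TSS. Ir25a, the most widely used coreceptor, had a signal of 469 (190 and 273) at the start of Fnta, a farnesyltransferase subunit gene, with the summit 1 bp from that start and 3651 bp from the nearest TSS of Ir25a. Ir76b, a coreceptor in taste and amine sensing, had 235 (118 in each replicate), 395 bp from the start of CG14187 and 1708 bp from its own. Ir8a, the coreceptor of acid sensing, had 231 (113 and 121), 17 bp from the start of CG12121 and 4190 bp from its own. All of these were in both replicates' lists.

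Within 500 bp of their own starts the coreceptors had only weak entries of the main ranked list, which holds all entries before the authors' threshold. The strongest had signals of 38.3 at Ir76b (score 76), 36.4 at Ir93a (score 128), 22.5 at Ir25a (score 140) and 9.40 at Ir8a (score 30). The authors' score is capped at 1000, and the lowest score in the thresholded lists was 830.

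Other ionotropic receptors had strong neighbours as well. Ir76a had a second summit, of 481 (249 and 232), downstream at TORIP, a torsin-interacting protein gene, and Ir68b had 425 (212 and 215) at yps, a Y-box RNA-binding protein gene. Further summits in the window of Ir31a reached 214, at CG17768. Ir7g had 140 (79.4 and 70.1) at Acat1, an acetyl-CoA acetyltransferase gene. Ir56b, a salt receptor, had 94.9, in replicate 1's list (55.6) and not in replicate 2's, and no protein-coding TSS lay within 500 bp of it. Ir21a, the cool-sensing receptor, had 84.4, 397 bp from the start of l(2)gl, a cell polarity gene, and was in neither replicate's thresholded list.

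Of the 6 odorant receptors with a window summit, 5 had it at a neighbour. Or9a had the strongest, with a signal of 731 (407 in replicate 1, 317 in replicate 2), 30 bp from the start of Neb-cGP and 1030 bp from that of Or9a. The rest were weaker than the median peak of the main list. Or88a, a receptor for fly odours, had 125, in replicate 2's list only (81.6), at CG12402. Or85f had 120, in replicate 2's list only (70.1), at RpL34b, a ribosomal protein gene. Or67b, a larval receptor for plant odours, had 90.0, in replicate 1's list only (58.7), at Cyp40, a cyclophilin gene, and Or71a had 71.7, in replicate 2's list only (54.5), at Plp, a centrosome protein gene. Or82a, another larval receptor, had 71.98 at 538 bp from its own start, the nearest protein-coding TSS. It was in neither replicate's thresholded list (35.3 and 36.5 in the ranked lists). Of 26 odorant receptors of the larva, 0 had an own-TSS summit and 2 a window summit, Or67b and Or82a, where 36.2% and 50.2% of all protein-coding genes did. The intervals were 0% to 12.9% and 2.14% to 24.1%.

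Among the gustatory receptors the sugar receptors held 2 of the own-TSS summits, those of Gr5a and Gr61a. The other 7 of the 9 had no summit within 2 kb. They were the fructose receptor Gr43a, whose TSS lay 2717 bp from the nearest main-list summit, and Gr64a to Gr64f. The carbon dioxide receptors Gr21a and Gr63a had none either. The 5 broadly used bitter receptors had 0 own-TSS summits and 1 in a window, for Gr66a, a caffeine receptor, where the signal was 62.8 at the start of CG7194, in replicate 1's list (42.1) and not in replicate 2's. The 6 pheromone receptors had 0 and 1, the latter for Or88a, and the 5 temperature and humidity receptors 0 and 2, for Ir93a and Ir21a. These groups are small. For each of them, with 6.32% to 54.7% for the sugar receptors, the intervals include the 36.2% and 50.2% of all protein-coding genes, so none of the groups in this paragraph is shown to differ.

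The remaining gustatory receptors with a window summit had it at a neighbour or far from any protein-coding start. The single peak in the windows of Gr59e and Gr59f, beyond the 3′ end of Gr59f, had a signal of 432 (187 and 261), 16 bp from the start of AIMP3, a gene of the aminoacyl-tRNA synthetase complex. Gr97a had a second peak of 428 (174 and 251) at Tsp97E, a tetraspanin gene, and Gr94a had 316 (150 and 178) at p53, the tumour suppressor gene. Gr59a had 98.9 at Art7, an arginine methyltransferase gene, in neither replicate's thresholded list. Gr2a had 97.4, in replicate 1's list only (59.8), 1957 bp from the nearest start, that of CG14785, and Gr47b had 56.9, also in replicate 1's list only (37.8), 2275 bp from that of CG13204.

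The 2 replicates gave similar counts from their own lists. Each had 5 receptors with an own-TSS summit, of which replicate 1 lacked Gr5a and Ir60b of the main list's 7 and replicate 2 lacked Gr61a and Ir60b. The shares of all protein-coding genes in those lists were 30.8% and 30.4%. Window summits were found for 22 and 20 receptors, against 44.1% and 43.5% of all genes. Gr98c and Gr98d had one in replicate 1's list alone, with a signal of 87.5, and Or67c in replicate 2's alone, with 49.2, and the main list had none at these 3. In both replicates' lists no receptor with an isolated TSS had an own-TSS summit. Of the 39 distinct window summits, 20 overlapped a peak in the thresholded list of each replicate, 10 of replicate 1's only, 5 of replicate 2's only and 4 of neither, and all 39 overlapped entries of both ranked lists. Over the 20 the log2 ratio of replicate 1 to replicate 2 had a median of -0.01 and an SD of 0.32, and ran from -0.53 to 0.43. Nested entries share a partner in these figures, and because the main list comes from these replicates, the overlap is largely built in. The median signal of the 39 was 102, with a range of 3.58 to 1046, and 7 of them overlapped a stronger entry.

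Below the authors' threshold the receptors had more entries, though fewer than other genes. In the main ranked list of 77377 entries on the arms, 47 of 179 receptors (26.3%, interval 20.4 to 33.2) had an entry within 500 bp of an own TSS, where 69.2% of all protein-coding genes did. These were 12 odorant, 19 gustatory and 16 ionotropic receptors. For 40 of the 47 the strongest such entry had only the receptor's own TSS as the nearest protein-coding TSS. With a score of at least 540, 8 receptors had one, where 41.9% of all genes did. For isolated starts it was 31 of 144 receptors, where 58.7% of all such genes had an entry. Among the genes with an entry, the highest score had a median of 89 in receptors and 956 in all protein-coding genes, and the strongest signal medians of 21.6 and 79.6.

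**Figure D4:**
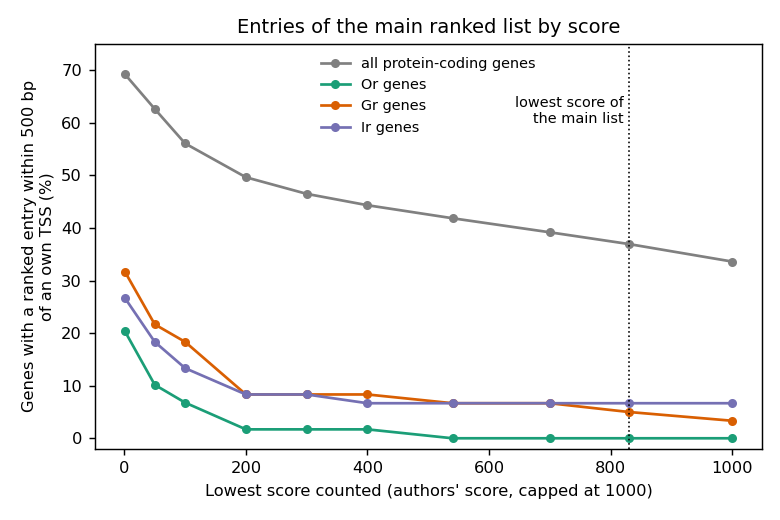
Percentage of genes with a main ranked-list entry within 500 bp of an own TSS (y axis) against the lowest score counted (x axis, authors' score, capped at 1000), for each receptor family and for all protein-coding genes. The dotted line marks 830, the lowest score of the main list, and the 3 families lie below all genes along the whole axis, with 0 odorant receptors from a score of 540 on.

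The strongest ranked entries at receptors without a window summit are given by family. Gr63a, of the carbon dioxide pair, had the highest, with a signal of 52.6 (22.7 in replicate 1, 33.6 in replicate 2) and a score of 753, though its summit was nearest to the start of Lamtor4. Its partner Gr21a had 11.7 at the score of 30. The odorant receptors followed with Or85a (48.9, score 187), Or85e (43.7, score 63) and Or47b, a pheromone receptor (29.7, score 86). Among the gustatory receptors Gr93c had 38.2 (score 156) and Gr85a 31.3 (score 188). Gr59a, whose window summit lay at Art7, also had a ranked entry of 44.8 (score 512). It lay 89 bp from the start of Gr59a, the nearest one, with 7.70 in replicate 1 and 35.8 in replicate 2. Among the ionotropic receptors Ir7e had 39.0 (score 329), the humidity receptor Ir68a 23.8 (score 74) and Ir51b 19.4 (score 30). In the replicates' own ranked lists Or85a had 8.89 in replicate 2 and no entry within 500 bp in replicate 1, whereas Ir7e had 13.8 and 24.4. Gr43a had 23.5 and Gr66a 17.04, both at a score of 30. At the listed score, 160 ranked entries on the arms at 830 or more were absent from the main list, and 0 of them lay in a receptor window.

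Many receptor windows were empty even in the ranked lists. For 88 receptors (49.2%) the main ranked list held no entry in the gene or within 2 kb, against 18.7% of all protein-coding genes. These were 33 odorant, 27 gustatory and 28 ionotropic receptors. For 62 (34.6%, against 12.2% of all) none of the 4 ranked lists held one. They included the pheromone receptors Or67d, Or65a and Gr68a, the bitter receptor Gr33a, the humidity receptor Ir40a and Ir84a, a receptor for food odours that promotes courtship.

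The tandem clusters fell into empty and occupied ones. Receptors were chained where neighbours lay within 10 kb, which gave 97 single genes and 16 clusters of 3 or more, with 58 receptors over 141402 bp. The clusters held 1 main-list summit, in the cluster of Ir60b, Ir60d and Ir60e, or 0.707 per 100 kb, against 4.16 per 100 kb over all arms. That summit lay more than 2 kb from each of these receptors. The own-TSS summits of Ir60b and Ir60e lay just outside the span of the cluster and are not in this count. In the main ranked list the clusters held 53.0 entries per 100 kb against 56.3, but unevenly. The cluster of 6 Ir7 genes held 22, the Gr93 cluster 21, the Ir60 cluster 17, the Gr64 sugar receptors 8, the cluster of Gr10b, Gr10a and Or10a 5 and the Ir56 cluster 2. The 10 other clusters, with 33 receptors over 67776 bp, held 0, and in 7 of the 16 the ranked lists of both replicates held none either. The GC content of the 10 empty clusters ran from 37.3% to 44.1% and that of the 6 others from 42.7% to 48.2%, and its part in the difference was not tested. Starts of 3 other protein-coding genes lay inside the 16 clusters.

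**Figure D5:**
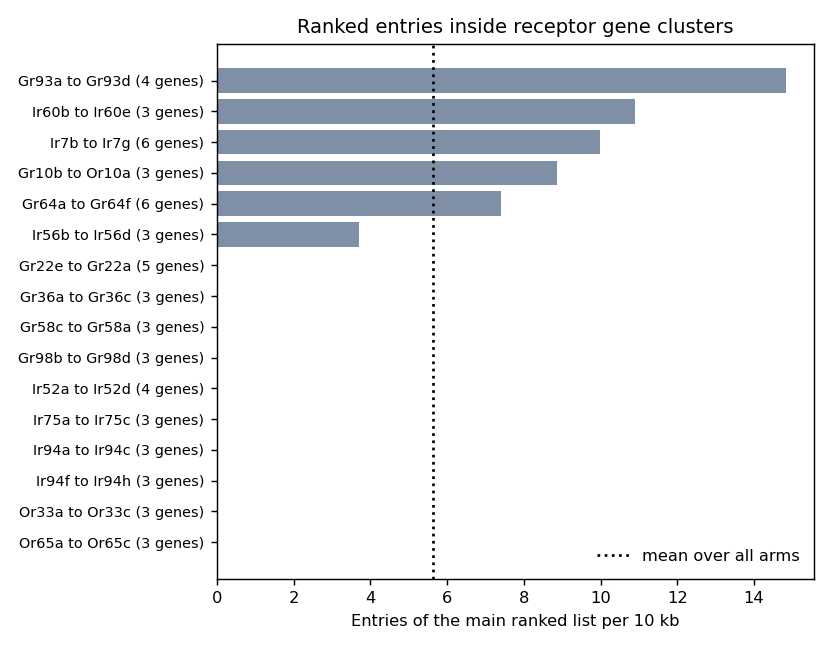
Entries of the main ranked list per 10 kb (x axis) in each of the 16 clusters of at least 3 receptor genes (y axis, named by first and last gene). The dotted line is the mean over all arms, and 10 clusters held 0 entries while the Gr93, Ir60, Ir7, Gr10 with Or10a and Gr64 clusters lay above the mean.

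Own-TSS summits were also few among the other genes of the chemosensory pathway. Of all protein-coding genes, 36.2% had an own-TSS summit and 50.2% a window summit. Orco, the coreceptor of the odorant receptors, had no summit within 2 kb and no ranked entry within 500 bp of a TSS. Of 51 odorant-binding protein genes (Obp), which encode carriers of odours in the sensillum lymph, 0 had an own-TSS summit. A window summit was found for 8 (interval 8.17% to 28.01%), the strongest in each window being nearest another gene's start. The highest were 792 at RNaseZ for Obp46a, 640 at robo1, an axon guidance receptor gene, for Obp59a and 513 at Ogdh for Obp73a. Of 29 ppk genes, which encode sodium channels used in taste, pheromone and touch neurons, 1 had an own-TSS summit (interval 0.611% to 17.2%). It was ppk29 (102, and 72.3 in replicate 2's list only). A window summit was found for 7 ppk genes (interval 12.2% to 42.1%). The membrane proteins Snmp1 and Snmp2 of pheromone sensing had none. Orco and the Snmp genes are too few to compare with all genes. Of 13 ionotropic glutamate receptor genes, 1 had an own-TSS summit (interval 1.37% to 33.3%). A window summit was found for 4, with an interval of 12.7% to 57.6% that includes 50.2%, so no difference is shown there. The own-TSS summit was at the NMDA receptor gene Nmdar1 (59.3), 73 bp from its start, and was shared with CG43845.

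Of the regulators of sensory neurons, 9 of 15 found by symbol had an own-TSS summit, with an interval of 35.7% to 80.2% that includes the 36.2% of all protein-coding genes. The highest were E2f2 (491, with 235 in replicate 1 and 221 in replicate 2), mip120 (441, with 192 and 238) and Rbf (242, with 147 and 92.8). These 3 encode subunits of the same repressor complex. The summit counted for E2f2 was nearest the start of its neighbour Mpp6, 18 bp away. The neuronal repressor scrt had 147 (93.2 and 54.3), the POU factor gene vvl 145 (55.2 and 82.6) and Dll, needed for the antenna, 116 (52.3 and 73.6). The POU factor gene pdm3 had 84.0, in replicate 2's list only (53.3), the sex determination gene fru had 53.8, in neither, and the eye regulator ey had 28.5, with 58.9 in replicate 1's list only. No own-TSS summit was found for acj6, ato, amos, onecut, lz or sens, of which acj6, the POU factor that selects odorant receptors, also had no ranked entry within 500 bp. Of the 15, 14 had a ranked entry there, where 69.2% of all genes did.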

How the data were processed

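Peak lists from 2 biological replicates in 1 group were used, so no comparison between groups was made and no test was run. Per the file headers and notes, the authors deposited a ranked list and a thresholded list for each replicate and, at series level, a main and a conservative pair made from both replicates and control alignments, on dm6. For the aligner and the peak caller, names and versions are not given in the sources. Sequencing depth is unknown. Each deposited peak carries the authors' score (capped at 1000), a signal whose scale is not stated, and −log10 values of the q-value and of the irreproducible discovery rate, which were not used to select peaks. The ranked lists held 8 further columns that could not be tied to a replicate, and these were not used.

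Summits were placed by the offset column of each deposited list, counted from 1. Genes came from the Ensembl annotation BDGP6.54 (release 115) and sequence from RefSeq release 6. A replicate's value at a main-list peak is its strongest entry overlapping by at least 1 bp. Counting was done in Python 3.11.15 with numpy 2.4.6 and scipy 1.17.1, plots with matplotlib 3.10.9, and the counting rules were tested on simulated data. Shares have Wilson 95% intervals, which cover counting error only, and the floor of a count of 0 is 3 counts. Members, roles and lists were chosen with earlier results of these data known. Named genes were every receptor with a summit within 2 kb, the 3 strongest ranked entries of each family not already named, the coreceptors, carbon dioxide receptors, Gr43a, Gr66a, Gr5a and Orco. Pathway genes, receptors without any ranked entry, Gr98c, Gr98d and Or67c were named after their values were seen. E93 was not found by symbol. Alternatives were other lists, thresholds and windows.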

Additional observations from a re-analysis of the deposited data

How the results depend on the processing

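With 1 replicate's own list in place of the main list, the own-TSS count was 5 to 5, the window count 20 to 22, the share of window summits nearest a non-receptor start 88% to 88.5% and the ranked count 44 to 50. Of the 7 receptors with an own-TSS summit, peaks above the median signal kept 3, a 250 bp window 2, isolated starts 0 and summits nearest the receptor's own TSS 1, the last 2 settings chosen after seeing the data. All protein-coding genes gave 24.0% and 32.9% in the first pair of settings. The window count of 28 became 14 with peaks above the median signal, 3 with the gene body only, and 17, 53 and 70 with windows of 1, 5 and 10 kb, where all protein-coding genes gave 35.5%, 16.2%, 44.9%, 61.2% and 70.9%. The share of 89.7% became 100% above the median signal, 96.6% at the highest score, 97.2% within 10 kb and 50% in gene bodies, where only 4 summits lay. The ranked count of 47 became 8 with a score of at least 540, and 25 and 74 with windows of 250 and 1000 bp, where all genes gave 60.2% and 75.01%. Among receptors without an annotated 5′ UTR the own-TSS, window and ranked counts were 1, 18 and 30, and among those with one 6, 10 and 17, a split chosen after seeing the data. Smaller windows and fewer peaks take in fewer summits by construction. No paired analysis was possible because there was 1 group. The control library was not analysed here, the replicates share the control set, and a peak absent from a list is not shown to be unbound.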
